A study of Homo sapiens with 12 samples.

Results

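Histone cluster genes encode the canonical core and linker histones that package newly made DNA, and they sit in a few dense arrays on chromosomes 6 and 1 with 1 further gene on chromosome 12. Their transcripts were followed here in RNA bound to Argonaute 2 (AGO2). The members are the table rows with a gene name that starts with HIST1H, HIST2H, HIST3H or HIST4H, and 12 rows were left out because each histone name on them ends in PS and a number (pseudogenes). This gave 72 of 61782 rows. The row, not the gene, is the unit, since 5 of the 72 rows are joined and carry 2 or more gene names, so that their value cannot be given to 1 gene.

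AGO2 was precipitated from K562, a human erythroleukemia cell line, which per the methods of the study carried an inducible C/EBPα-ER fusion. All cells had received a lentiviral vector (Biosettia) with a puromycin resistance and a red fluorescent reporter and were kept under puromycin, either pLV-control or pLV-miR-143. From each population RNA was taken with an AGO2 antibody or with unspecific immunoglobulin as mock precipitate, which gave the groups control_IgG, control_AGO, miR143_IgG and miR143_AGO with 3 samples each from 3 independent experiments. Each table holds 1 average FPKM (mapped fragments divided by transcript length and by library total) per row and group, so there is no spread between replicates, no test was possible, and every difference is a ratio of averages.

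The MIR143 row, which checks the vector labels, was listed at 0 in control_IgG and control_AGO and stood at 44781 FPKM in miR143_IgG and 118393 FPKM in miR143_AGO. Among K562 marker genes, the erythroid transcription factor GATA1 lay between 52.0 and 73.2 FPKM over the 4 groups, and the erythroid transcription factor KLF1 lay between 41.9 and 289 FPKM. The number of fragments behind the values is unknown. The lowest products of FPKM and transcript length were 12.9 times those of miR143_AGO in control_IgG, 1.64 times in miR143_IgG and 1.09 times in control_AGO, so that a low value in control_IgG rests on the fewest fragments. Only 1 histone value, in control_AGO, was under 3 times the lowest product of its group.

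Canonical histone mRNAs are made in S phase and differ from other mRNAs in that most end in a conserved stem-loop and carry no poly(A) tail. The stem-loop is bound by the protein SLBP, which serves 3′ end formation, export, translation and decay. In the nucleosome, pairs of H2A with H2B flank a core of H3 and H4, and the linker histone H1 binds where the DNA enters and leaves. AGO2 holds small RNAs on target transcripts, mostly through pairing of the miRNA seed with sites in mRNA.

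The 3′ stem-loop is shown first because it is the sequence that sets these mRNAs apart. It was searched on the sense strand of GENCODE 29 transcripts as 6 bases opening with GG, a loop of 4 bases opening with TTT, and 6 bases complementary to the first arm and closing with CC. A match was found for 31 of 76 histone gene names (40.8%), against 41 of 19831 other coding genes (0.207%). For 43 of the 76 names every annotated transcript has a length that is a multiple of 3, as models that hold only coding sequence have, although a few of these are longer than a histone coding sequence. No match says only that these letters are not in the model. The examples are the pair of genes that led the AGO2 precipitates, the H4 gene that led the mock precipitates, and an H4 gene with the other loop. Capitals mark the stem arms, and coordinates are those of the 16 bases in GRCh38:
HIST1H2AI: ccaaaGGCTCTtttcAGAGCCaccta
HIST1H2BL: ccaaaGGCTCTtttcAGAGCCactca
HIST1H4J: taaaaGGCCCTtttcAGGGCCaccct
HIST1H4I: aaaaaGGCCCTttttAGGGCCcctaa
These lie at chr6:27808647-27808662 (plus strand), chr6:27807484-27807499 (minus strand), chr6:27824459-27824474 (plus strand) and chr6:27139654-27139669 (plus strand). The arms differed by type. All 23 matches in H2A, H2B and H3 genes had the stem GGCTCT, and all 8 in H4 genes had GGCCCT. Among the H4 genes the loop was tttc in 5 and tttt in 3.

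Mature miR-143-3p pairs through its seed, bases 2 to 8, which is in capitals in the mature sequence from RefSeq (GRCh38.p14, chr5:149428978-149428998, plus strand):
hsa-miR-143-3p: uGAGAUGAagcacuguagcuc
Its sites were searched in the longest coding transcript of each gene, on the sense strand, as TCATCTC (7mer-m8), CATCTCA (7mer-A1) and TCATCTCA (8mer, which holds both). At least 1 site was found in 9 of 70 histone genes of any transcript length (12.9%), against 10.8% of 1588 other coding genes with transcripts of at most 1000 bases. No 8mer was among the histone sites. The 2 shares come from sets of unlike length, with median transcripts of 506 and 764 bases. Histone genes with a site reached 2250 bases (HIST1H2AG). The sites in HIST1H2BO, HIST1H4B and HIST1H4E are shown with capitals on the matched bases, as the genes recur below:
HIST1H2BO: gacaccggCATCTCAtcgaaggc
HIST1H4B: gatggtaaCATCTCAatggcttt
HIST1H4E: ttgtgattTCATCTCctccctca
HIST1H2BB, HIST1H2BF and HIST1H2BG hold a CATCTCA in the same stretch of the H2B sequence as HIST1H2BO, so these sites are homologous and not separate observations.

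Of the 72 rows, 47 were above 0 in at least 1 group and 25 were listed at 0 in all 4. The rows at 0 were 5 annotated pseudogenes and 20 coding genes. The latter were the H1 gene HIST1H1A, HIST1H2AA, HIST1H2BA, HIST1H2BE, HIST1H2BI, HIST1H2BM, 6 H3 genes (HIST1H3C, HIST1H3E, HIST1H3G, HIST1H3I, HIST2H3C and HIST3H3) and 8 H4 genes (HIST1H4D, HIST1H4F, HIST1H4G, HIST1H4K, HIST1H4L, HIST2H4A, HIST2H4B and HIST4H4). For comparison, 42.6% of all coding rows and 74.9% of all rows were at 0 throughout. Of the 20 coding genes, 4 share at least 90% of their 100-base windows with another histone gene, so that reads could be assigned elsewhere, and 15 share none.

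The rows above 0 were abundant. From here on, a pair of FPKM values or shares of 1 kind of precipitate gives control cells before miR-143 cells. The median of the 47 rows was 145 and 128 FPKM in the mock precipitates and 39.7 and 44.2 FPKM in the AGO2 precipitates. All histone rows together summed to 10629 and 11291 FPKM in the mock precipitates and to 3052 and 3826 FPKM with AGO2. The summed FPKM of histone rows was thus lower in both AGO2 precipitates. Its share depended on what it was set against. Coding histone rows with a single name made up, of the summed FPKM of such coding rows, 4.26% and 4.65% in the mock and 1.73% and 2.22% in the AGO2 precipitates. Of the summed FPKM of all rows, noncoding ones included, histone rows made up 0.375% and 0.435% in the mock and 0.828% and 0.930% in the AGO2 precipitates, the opposite order. The totals themselves differed. All rows summed to 2.83e+06 and 2.60e+06 FPKM in the mock and to 368552 and 411417 FPKM in the AGO2 precipitates. Single-name coding rows summed to 223537 and 217521 FPKM, then 154895 and 153092 FPKM. The higher share of all rows with AGO2 thus goes with a smaller total, not with more histone FPKM. FPKM divides by transcript length, so that the level of a short mRNA depends on the annotated end. The sources differ on whether the libraries were selected for poly(A), so the levels do not say how much histone mRNA without a tail was present.

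**Figure D1:**
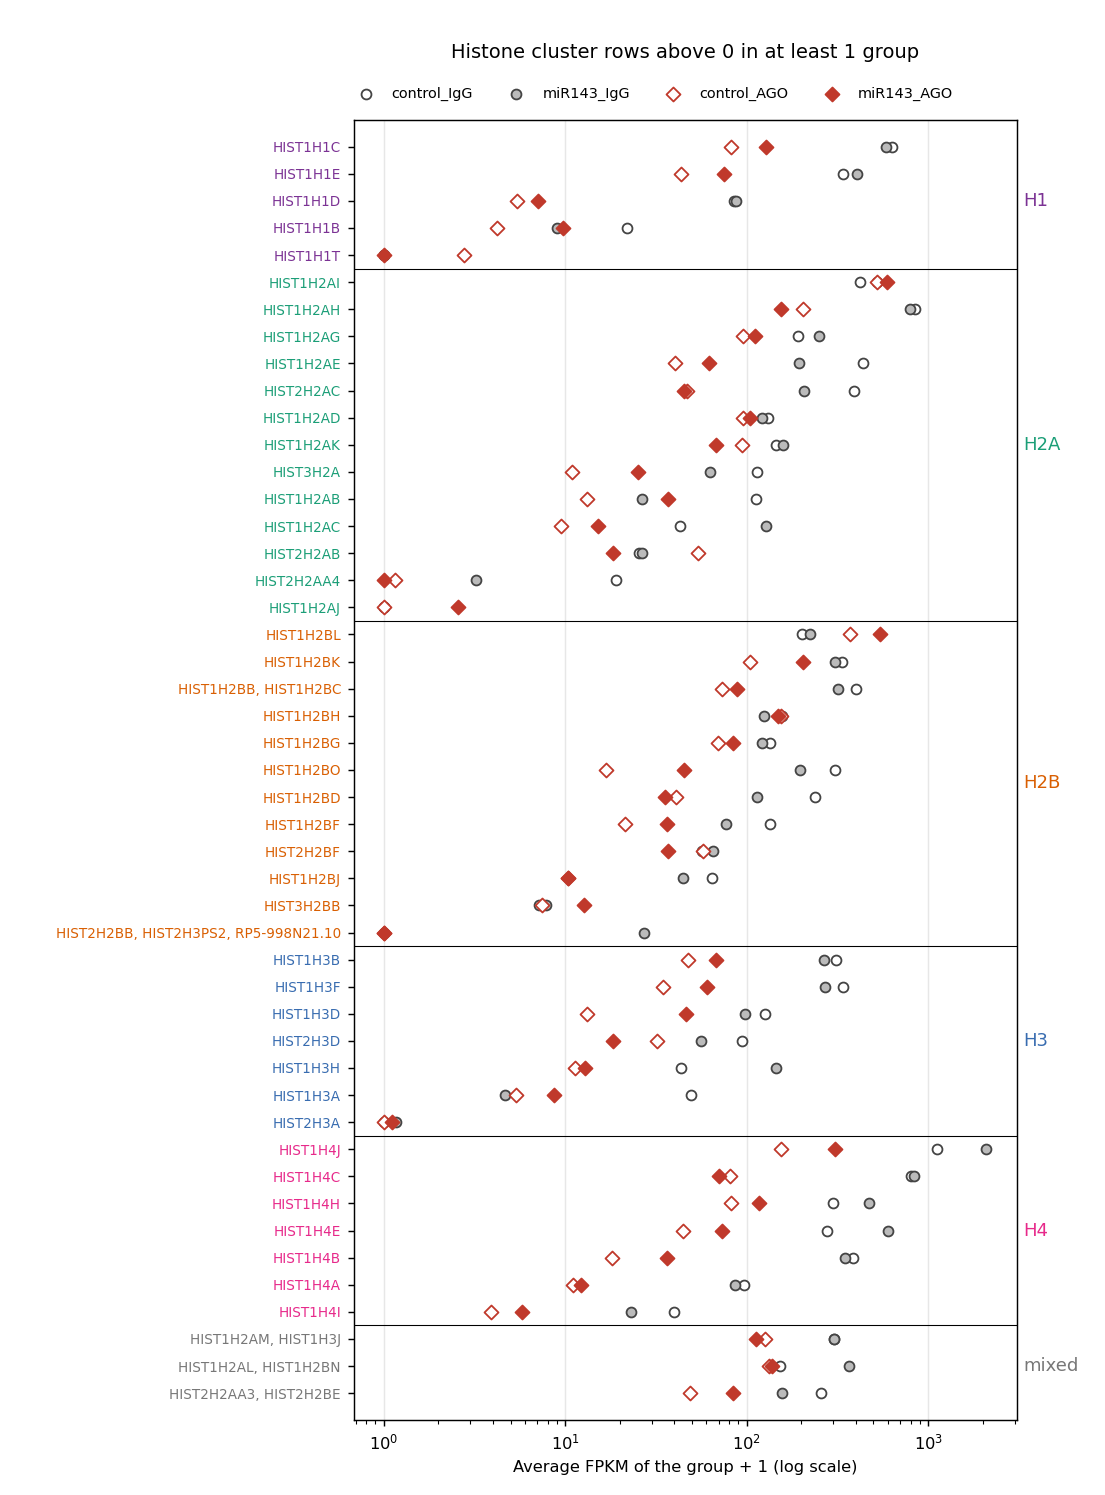
Average FPKM plus 1 (log axis) of the 47 histone rows above 0 in at least 1 group, ordered by histone type, with circles for mock (IgG) and diamonds for AGO2 precipitates and filled symbols for miR-143 cells. All 7 H4 rows have both diamonds left of both circles, while each diamond of HIST1H2AI and HIST1H2BL lies right of the circle of the same cell population.

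Within the histone signal, the order of the types differed between mock and AGO2 precipitates. H4 rows held 28.3% and 39.4% of the histone sum in the mock precipitates, but 12.7% and 16.02% with AGO2. H2B rows went the other way, with 19.02% and 14.3% in the mock against 29.98% and 32.2% in the AGO2 precipitates. H2A rows held 26.9% and 21.9% in the former and 38.5% and 31.97% in the latter. H2A and H2B are partners in the nucleosome and occur there in equal number with H3 and H4, and their mRNAs together (joined rows of these types included) made up 49.7% and 40.9% of the signal in the mock and 74.3% and 69.98% in the AGO2 precipitates. The H1, H3 and H4 rows together held 47.4% and 56.5%, then 21.6% and 27.1%.

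**Figure D2:**
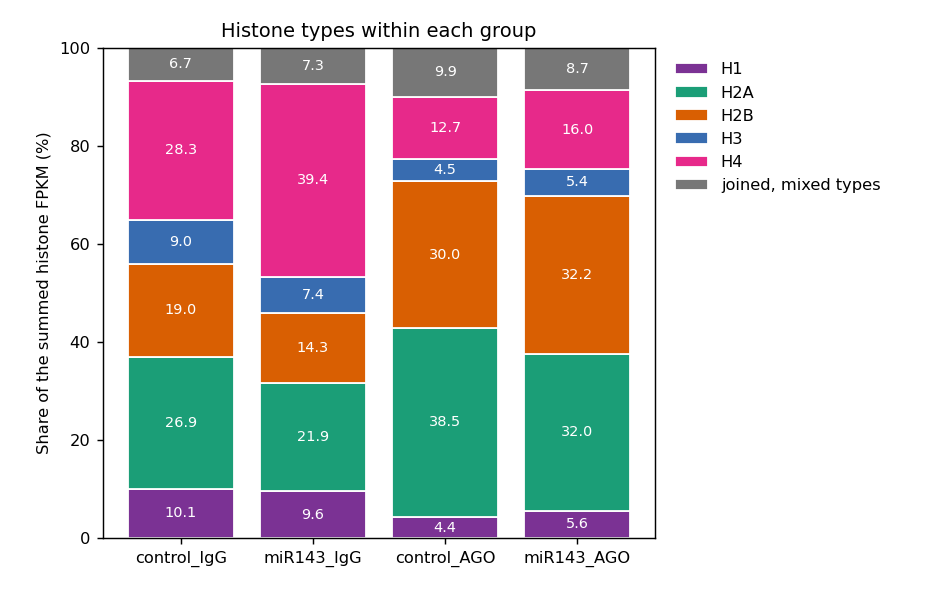
Share of the summed histone FPKM (percent) held by each histone type in the 4 groups. The H4 share is 28.3% and 39.4% in the mock precipitates and 12.7% and 16.02% in the AGO2 precipitates, and the H2B share is larger in both AGO2 precipitates.

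A pair of these genes held a larger share of the histone sum with AGO2. HIST1H2AI (H2A, chr6:27808199-27808701) stood at 420 and 519 FPKM in the mock and 520 and 592 FPKM in the AGO2 precipitates. HIST1H2BL (H2B, chr6:27807444-27807931) stood at 201 and 224 FPKM with IgG and 369 and 541 FPKM with AGO2. In both AGO2 precipitates these rows ranked 1 and 2 among all histone rows, whereas in the mock precipitates HIST1H2AI ranked 6 in both populations and HIST1H2BL ranked 20 in control and 17 in miR-143 cells. Together they held 5.85% and 6.58% of the histone sum in the mock precipitates and 29.1% and 29.6% in the AGO2 precipitates. These shares also reflect the lower histone sum with AGO2, as HIST1H2AI itself was 1.24 and 1.14 times higher and HIST1H2BL 1.83 and 2.42 times higher. HIST1H2AI shares 57.7% of its 100-base windows with another histone gene, so part of its reads could come from a copy, and HIST1H2BL shares none.

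To ask whether histone mRNAs were enriched with AGO2, the ratio of AGO2 over mock precipitate was computed as log2((FPKM + 1)/(FPKM + 1)) for rows of at least 1 FPKM in 1 of the groups, a scale that understates the change of low rows. In control cells, 32 of 44 histone rows (72.7%) were at least 2-fold lower with AGO2, against 36.2% of all 9919 rows, and 2 were at least 2-fold higher, against 34.5%. In miR-143 cells, 31 of 45 (68.9%) were at least 2-fold lower, against 33.5% of all 10643 rows, and 2 were at least 2-fold higher, against 26.6%. The median log2 ratio of the histone rows was −2.50 in control and −1.66 in miR-143 cells, and that of all rows −0.19 and −0.22. No histone row was 10-fold higher, against 4.38% and 1.6% of all rows. At least 10-fold lower were 7 rows in control cells (15.9%, all rows 4.98%) and 4 in miR-143 cells (8.89%, all rows 3.67%). The contrast of the medians was smaller at higher levels. When only rows averaging 5 FPKM or more were kept, all rows had medians of −0.70 in control and −0.52 in miR-143 cells. The histone medians were then −2.56 and −1.66. At least 2-fold lower were then 32 of 43 and 30 of 43 histone rows, against 44.3% and 39.4% of all rows. At least 2-fold higher was then 1 of 43 in each population, against 24.1% and 21.5% of all rows. Before this filter, 7290 of the 9919 and 9110 of the 10643 rows were above 0 in both groups. Of the histone rows, 43 of 44 and 42 of 45 were.

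Short transcripts in general were lower with AGO2. Among 162 other coding rows with transcripts of at most 1000 bases, 53.7% were at least 2-fold lower in control cells with a median log2 ratio of −1.32, and among 181 in miR-143 cells 55.2% were, with a median of −1.21. Length therefore moves with the result, and its part was not tested. Among the histone rows themselves, the 28 with an annotated transcript of at most 1000 bases had medians of −2.95 in control and −1.68 in miR-143 cells, and the 11 longer ones −1.86 and −1.17. At least 2-fold lower in control cells were 23 of the 28 and 6 of the 11. The Spearman correlation of length and ratio over these 39 rows was 0.24 in control and 0.07 in miR-143 cells, given as a description since the rows share libraries.

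**Figure D3:**
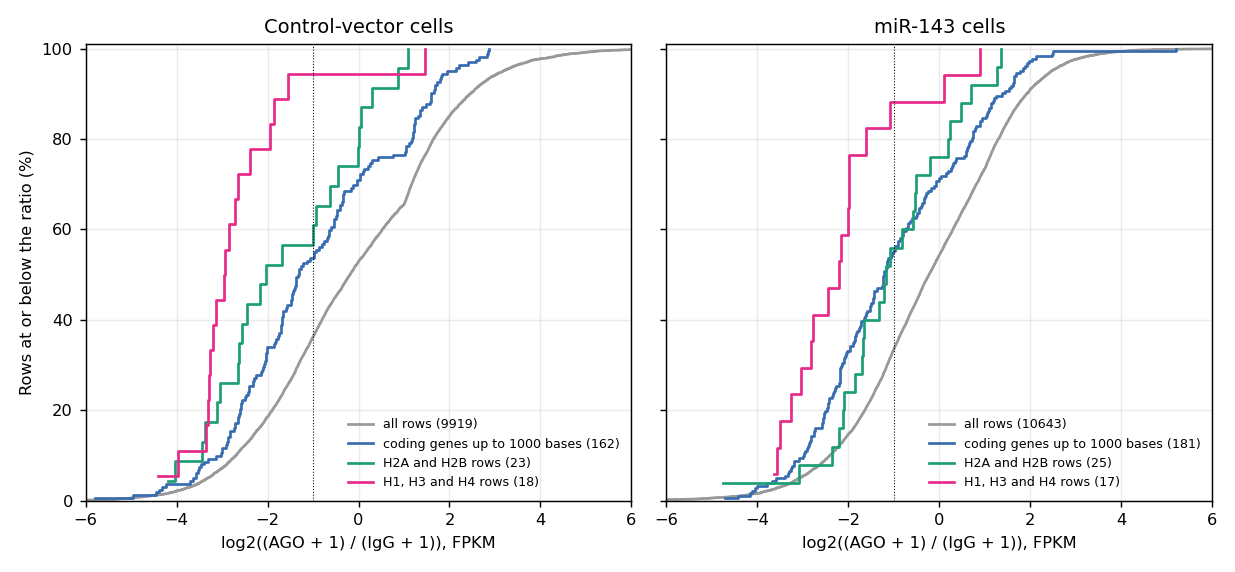
Cumulative share of rows (percent) by log2 ratio of AGO2 over mock FPKM in control-vector cells (left) and miR-143 cells (right), for all rows, other coding genes of at most 1000 bases, H2A and H2B rows, and H1, H3 and H4 rows. The dotted line marks 2-fold lower, and the curve of H1, H3 and H4 rows lies left of the other curves over most of its length in both panels.

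The H4 rows had the lowest median of the 5 types in both populations. All 7 were at least 2-fold lower with AGO2 in both populations, also under each scaling tried, with a median log2 ratio of −3.13 in control and −2.83 in miR-143 cells. HIST1H4J, the highest histone row of both mock precipitates, stood at 1116 and 2096 FPKM in the mock precipitates and 153 and 304 FPKM with AGO2. It was 7.28 times lower with AGO2 in control and 6.89 times lower in miR-143 cells, and 77.7% of its 100-base windows are shared with another histone gene. HIST1H4C (chr6:26103876-26104310), which shares none, stood at 801 and 832 FPKM in the mock and 79.5 and 69.8 FPKM in the AGO2 precipitates. The 2 mock values of HIST1H4C were close together, as were the 2 AGO2 values, and the AGO2 values were 10.1 and 11.9 times lower.

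The other H4 rows kept this order at lower levels. HIST1H4B was at 384 and 347 FPKM with IgG and 17.1 and 35.3 FPKM with AGO2, 22.5 and 9.83 times lower with AGO2. HIST1H4E was at 276 and 601 FPKM in the mock precipitates and 43.5 and 72.1 FPKM with AGO2. HIST1H4H was at 298 and 469 FPKM with IgG and 81.3 and 115 FPKM with AGO2. It had the smallest difference among the H4 rows in control cells, 3.66 times lower. HIST1H4A was at 95.5 and 85.7 FPKM in the mock precipitates and 9.99 and 11.2 FPKM with AGO2, and HIST1H4I at 38.5 and 22.0 FPKM in the mock and 2.90 and 4.78 FPKM in the AGO2 precipitates.

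H3 rows resembled H4 rows in control cells, where 6 of 6 were at least 2-fold lower (median −2.96), and less so in miR-143 cells, where 5 of 6 were (median −1.79). HIST1H3F (chr6:26250195-26250605) was at 337 and 268 FPKM in the mock and 33.7 and 59.2 FPKM in the AGO2 precipitates. HIST1H3B was at 311 and 266 FPKM with IgG and 46.5 and 66.5 FPKM with AGO2. Both AGO2 values of these genes lay far below both mock values. HIST1H3D, which overlaps AL031777.3 on the same strand, was at 125 and 97.3 FPKM in the mock precipitates and 12.2 and 45.4 FPKM with AGO2, and HIST2H3D, which shares 51.3% of its windows, at 93.3 and 54.7 FPKM in the mock and 31.2 and 17.3 FPKM in the AGO2 precipitates. HIST1H3H stood out among the mock values, at 42.3 FPKM in control_IgG and 144 FPKM in miR143_IgG, with 10.3 FPKM in control_AGO and 11.8 FPKM in miR143_AGO. HIST1H3A was the H3 row with opposite signs, at 48.5 FPKM in control_IgG and 4.36 FPKM in control_AGO but 3.67 FPKM in miR143_IgG and 7.73 FPKM in miR143_AGO.

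Among the linker histones, 4 of 5 H1 rows were at least 2-fold lower with AGO2 in control cells (median −2.94) and 3 of 4 in miR-143 cells (median −2.32). HIST1H1C (chr6:26055787-26056428), which is also known to give polyadenylated transcripts, was at 630 and 588 FPKM with IgG and 81.1 and 127 FPKM with AGO2. HIST1H1E was at 338 and 406 FPKM with IgG and 42.4 and 74.2 FPKM with AGO2. HIST1H1D was at 84.0 and 86.9 FPKM in the mock precipitates and 4.44 and 6.07 FPKM with AGO2, 18.9 times lower with AGO2 in control and 14.3 times lower in miR-143 cells. These 3 genes kept their order in all groups. HIST1H1B was low throughout, at 20.97 and 8.05 FPKM in the mock and 3.22 and 8.74 FPKM in the AGO2 precipitates. The testis-type linker histone HIST1H1T was at 1.76 FPKM in control_AGO and listed at 0 elsewhere.

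H2A rows were more scattered. Of 12 compared in control cells 7 were at least 2-fold lower with AGO2 (median −2.11), and of 13 in miR-143 cells 8 were (median −1.22). The shares were 58.3% and 61.5%, beside 53.7% and 55.2% of other short coding rows, whose medians were −1.32 and −1.21. Without the rows that overlap another gene, 7 of 9 were lower in control cells with a median of −3.05, below the H1 and H3 medians of −2.94 and −2.71 under the same choice. With groups scaled to the same upper quartile or coding sum, 5 of the 13 were lower in miR-143 cells. HIST1H2AH (chr6:27147129-27147515) was at 841 and 791 FPKM in the mock precipitates and 203 and 153 FPKM with AGO2. HIST1H2AE was at 435 and 194 FPKM with IgG and 39.1 and 60.7 FPKM with AGO2 and HIST2H2AC at 388 and 205 FPKM in the mock precipitates and 46.1 and 43.9 FPKM with AGO2. In each of these genes both AGO2 values lay below both mock values, although HIST1H2AE was 11.1 times lower with AGO2 in control cells and 3.19 times lower in miR-143 cells. HIST1H2AD, which also overlaps AL031777.3 on the same strand, was at 130 and 120 FPKM in the mock and 94.3 and 104 FPKM in the AGO2 precipitates. HIST1H2AG was at 190 and 248 FPKM in the mock and 94.7 and 110 FPKM in the AGO2 precipitates, 2.01 and 2.27 times lower. HIST2H2AB was the single named H2A row with its highest value in control_AGO, at 24.4 and 25.4 FPKM with IgG and 52.7 and 17.4 FPKM with AGO2. It overlaps BOLA1 on the opposite strand, and without strand their reads cannot be told apart. HIST1H2AB was at 112 and 25.4 FPKM with IgG and 12.2 and 35.9 FPKM with AGO2.

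H2B rows had the median nearest to 0 of the 5 types in both populations, with 6 of 11 at least 2-fold lower in control cells (median −1.68) and 6 of 12 in miR-143 cells (median −0.95). These shares, 54.5% and 50.0%, lay near the 53.7% and 55.2% of other short coding rows, whose medians were −1.32 and −1.21. Of all rows, 36.2% and 33.5% were at least 2-fold lower. HIST1H2BK was at 333 and 305 FPKM in the mock precipitates and 103 and 203 FPKM with AGO2. The joined row of HIST1H2BB and HIST1H2BC was at 397 and 317 FPKM in the mock precipitates and 71.8 and 87.8 FPKM with AGO2. HIST1H2BO was at 304 and 195 FPKM in the mock and 15.9 and 44.2 FPKM in the AGO2 precipitates, 19.2 times lower with AGO2 in control and 4.42 times lower in miR-143 cells. Against these, HIST1H2BH was nearly level, at 156 and 124 FPKM in the mock and 154 and 147 FPKM in the AGO2 precipitates. HIST1H2BG was at 133 and 120 FPKM with IgG and 68.8 and 83.4 FPKM with AGO2, and HIST2H2BF, which overlaps other annotated genes, at 56.1 and 64.4 FPKM in the mock precipitates and 56.2 and 36.0 FPKM with AGO2. HIST1H2BL, described above, was 1.83 times higher with AGO2 in control and 2.42 times higher in miR-143 cells, the largest plain enrichment among histone rows above 0 in both groups of miR-143 cells.

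Joined rows of mixed type followed the same range. The row of HIST1H2AM and HIST1H3J was at 303 and 301 FPKM with IgG and 125 and 112 FPKM with AGO2. The row of HIST1H2AL and HIST1H2BN was at 152 and 366 FPKM in the mock and 131 and 138 FPKM in the AGO2 precipitates, and that of HIST2H2AA3 and HIST2H2BE at 257 and 156 FPKM with IgG and 47.6 and 83.1 FPKM with AGO2. A further joined row, HIST2H2BB with HIST2H3PS2 and RP5-998N21.10, was at 26.1 FPKM in miR143_IgG and listed at 0 in the other groups.

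The ratios of the populations, which share no group, were set side by side for the 43 histone rows compared in both. At least 2-fold lower with AGO2 in both were 27 rows (62.8%), against 16.4% of 8648 rows overall. The Pearson correlation across the 43 rows was 0.58 and the Spearman correlation 0.54, against 0.42 and 0.41 across all rows, given as descriptions since genes are not independent replicates. A ratio above 0 in both populations was found for HIST1H2AI, HIST1H2BL and HIST3H2BB, the last at 6.19 and 6.88 FPKM in the mock precipitates and 6.42 and 11.7 FPKM with AGO2. For 34 rows the ratio was below 0 in both, and for 6 it had opposite signs.

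**Figure D4:**
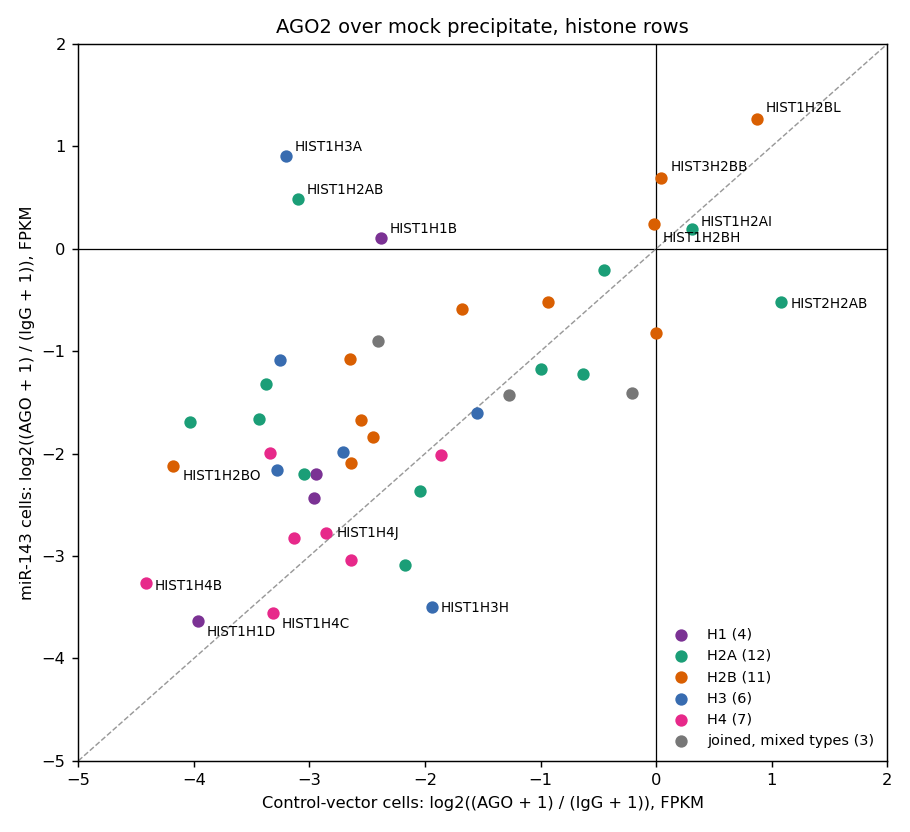
Log2 ratio of AGO2 over mock FPKM in control-vector cells (horizontal) and miR-143 cells (vertical) for the 43 histone rows compared in both, coloured by type, with a dashed line of equal ratios. Of the rows, 34 lie in the lower left part, and HIST1H2BL, HIST1H2AI and HIST3H2BB lie in the upper right.

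Position in the genome was then examined for the 39 rows with a single name that were compared in both populations. The chromosome 6 array holds 49 rows from HIST1H2AA to HIST1H2BO (chr6:25726132-27893843), with its widest gap of 840259 bases between HIST1H4H and HIST1H2BJ. The 20 rows before this gap had a median log2 ratio of −2.95 in control and −1.998 in miR-143 cells. For the 12 rows after it the medians were −1.99 and −1.61, and for 7 rows on chromosome 1 they were −1.55 and −1.32. The 6 rows that overlap another annotated gene had medians of −0.54 and −0.95, against −2.71 and −1.99 for the 33 that do not, and the part of the overlapping genes was not tested. Rows with at least 100 annotated bases after the stem-loop (11) had medians of −1.94 and −1.32, and those with fewer (7) of −2.86 and −1.68.

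Many H2A and H2B genes stand head to head. Starts on opposite strands within 1000 bases were found for 14 pairs, of which 13 joined an H2A with an H2B gene, and in 6 pairs both genes had a row of their own above 0. HIST1H2BL and HIST1H2AI are such a pair, with 267 bases between their starts, and formed the single pair of the 6 with both ratios above 0 in both populations. Partners elsewhere could differ. HIST1H2BG and HIST1H2AE, 282 bases apart, had log2 ratios of −0.94 and −3.44 in control cells and −0.52 and −1.66 in miR-143 cells. HIST1H2AD and HIST1H2BF, 276 bases apart, had −0.45 and −2.65 in control cells and −0.21 and −1.08 in miR-143 cells. HIST1H2BK and HIST1H2AH, 330 bases apart, had −1.68 and −2.04 in control cells and −0.59 and −2.36 in miR-143 cells. HIST1H2BJ and HIST1H2AG, 291 bases apart, had −2.64 and −0.997 in control cells and −2.09 and −1.17 in miR-143 cells.

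Whether miR-143 altered the histone signal was asked first between the AGO2 precipitates. Of 44 rows, 7 had an at least 2-fold higher value in miR143_AGO (15.9%, all rows 17.7%) and 2 at least 2-fold lower (4.55%, all rows 14.1%). None was 10-fold apart in either direction, against 0.286% of all rows higher and 0.745% lower, and there was no replicate test. The median log2 ratio was 0.50, against 0.17 over all 9798 rows and 0.21 over other short coding rows. A ratio above 0 was found for 33 of 44 histone rows, 57.5% of all rows and 62.6% of short coding rows. As these are bulk libraries, fewer cells with an mRNA and less of it per cell cannot be told apart. The medians by type were 0.64 for H1, 0.20 for H2A, 0.29 for H2B, 0.60 for H3 and 0.57 for H4.

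By plain ratio, the genes at least 2-fold higher in miR143_AGO were HIST1H3D (3.72 times), HIST1H2AB (2.95), HIST1H2BO (2.79), HIST1H1B (2.71), HIST3H2A (2.43, from 9.97 to 24.3 FPKM) and HIST1H4B (2.07), together with HIST1H2AJ, which was listed at 0 in control_AGO and at 1.56 FPKM in miR143_AGO. None of these 7 exceeded 45.4 FPKM in miR143_AGO, the value of HIST1H3D. At least 2-fold lower were HIST2H2AB (3.03 times) and HIST1H1T. The leading rows of the AGO2 precipitates were less far apart, HIST1H2AI being 1.14 times and HIST1H2BL 1.46 times higher.

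Between the mock precipitates the histone median lay on the other side of 0 in the values as deposited. Of 44 histone rows, 5 reached a 2-fold higher value in miR143_IgG (11.4%, all rows 36.2%) and 6 a 2-fold lower one (13.6%, all rows 26.8%), with a median log2 ratio of −0.13 against 0.17 over all 10172 rows. That contrast depended on rows at 0 or at low levels. Over the 7244 rows above 0 in both mock groups the median plain ratio was 0.85, against 0.91 over 43 histone rows. Among rows averaging 5 FPKM or more, the median log2 ratio was −0.07 for all rows and −0.13 for histone rows. At least 10-fold higher was 1 row, the joined HIST2H2BB row listed at 0 in control_IgG (all rows 5.71%), and 10-fold lower was HIST1H3A, 13.2 times (all rows 3.16%). The histone median was above 0 when groups were scaled to the same median (0.14) or upper quartile (0.044), where the median of all rows was 0.43 and 0.33. The higher rows were HIST1H3H, HIST1H2AC, HIST1H4E and the joined rows of HIST1H2AL and of HIST2H2BB.

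**Figure D5:**
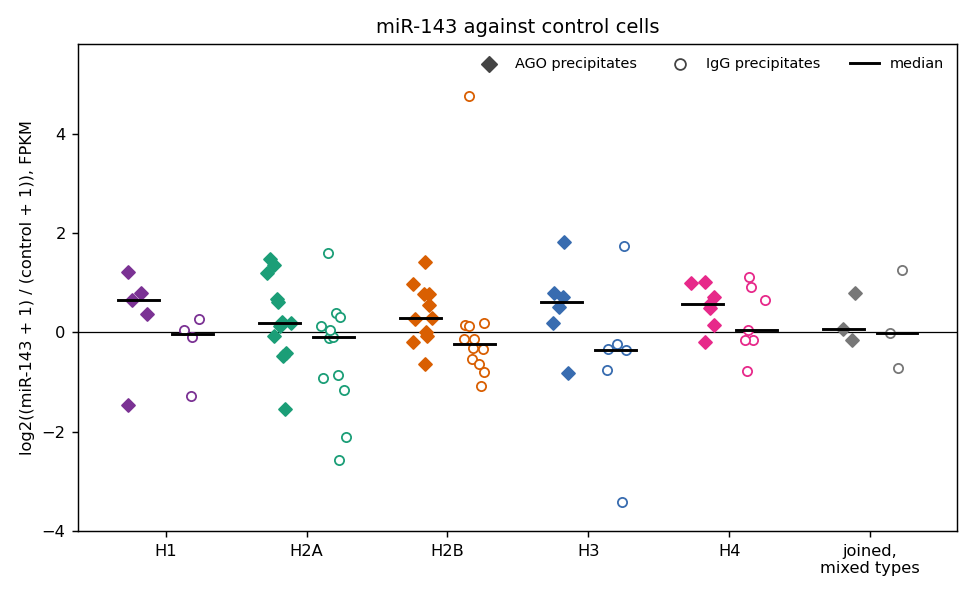
Log2 ratio of miR-143 over control cells in AGO2 precipitates (filled diamonds) and mock precipitates (open circles) for the histone rows of each type, with the median as a bar. The medians of the AGO2 precipitates lie between 0.20 and 0.64 for the 5 types, and those of the mock precipitates between −0.35 and 0.06.

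Rows whose gene holds a miR-143-3p seed site were compared with the rest. No site says only that none is in the longest annotated coding transcript, which for many genes may hold only coding sequence. In the AGO2 pair the median log2 ratio was 0.61 for the 8 rows with a site, all of them above 0, against a median of 0.44 and 25 of 36 rows (69.4%) without a site. In the mock pair the medians were −0.14 and −0.12. For AGO2 over mock precipitate they were −2.54 with and −2.48 without a site in control cells, and −1.93 and −1.60 in miR-143 cells. Rows with a site thus stayed below 0 in AGO2 over mock in both populations, as most histone rows did. The difference was not tested, and 4 of the 8 rows are H2B rows that share the site's sequence.

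The remaining lists place the cluster genes among related transcripts. Of 9 cluster genes known to give polyadenylated transcripts as well, 6 had a row with a single name and 5 could be compared. All 5 were at least 2-fold lower with AGO2 in control cells (median −2.17) and 4 in miR-143 cells (median −2.01), beside −2.50 and −1.66 for all histone rows, which include them. Replication-independent histone genes, most of which give only polyadenylated mRNAs, had medians of −1.18 and −0.73 over 6 rows. At least 2-fold lower were 3 of 6 (50%) and 2 of 6 (33.3%), beside 36.2% and 33.5% of all rows. Of other short coding rows, 53.7% and 55.2% were. H3F3B and H3F3A both encode the replacement histone H3.3 and differed in direction in control cells. In miR-143 cells H3F3B was nearly level (log2 ratio 0.08) and H3F3A was lower (−1.92). H3F3B was at 163 and 389 FPKM in the mock precipitates and 474 and 411 FPKM with AGO2, and H3F3A at 11.8 and 4.21 FPKM in the mock precipitates and 0.57 and 0.38 FPKM with AGO2. H2AFZ, which encodes H2A.Z, was at 80.7 and 91.5 FPKM in the mock and 25.9 and 53.6 FPKM in the AGO2 precipitates.

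Of 14 factors of histone mRNA synthesis, processing and decay, 13 had a row. In control cells 5 of 11 compared were at least 2-fold lower with AGO2 and 3 higher (median −0.90), and in miR-143 cells 4 of 13 were lower and 2 higher (median 0.43). The lower shares were 45.5% and 30.8%, against 36.2% and 33.5% of all rows. The 3 higher rows of control cells, CPSF3, ZNF473 and ERI1, were listed at 0 in control_IgG. They lay at 4.30, 3.54 and 2.11 FPKM in control_AGO, and in miR-143 cells their log2 ratios were −2.85, −1.90 and 1.25. SLBP was at 16.3 and 5.76 FPKM in the mock and 4.96 and 9.07 FPKM in the AGO2 precipitates. LSM10, a subunit of the U7 particle that cuts histone pre-mRNA, was at 20.2 and 24.0 FPKM with IgG and 2.26 and 2.28 FPKM with AGO2. Of histone chaperones, 5 of 6 rows were at least 2-fold lower in control cells (median −2.53) and 3 of 7 in miR-143 cells (median −0.97). These shares were 83.3% and 42.9%, against 36.2% and 33.5% of all rows. RBBP4 was at 71.9 and 42.2 FPKM in the mock precipitates and 7.80 and 8.12 FPKM with AGO2. A ratio above 0 was found for 1 of 6 chaperone rows in control and 2 of 7 in miR-143 cells. ASF1B was above 0 in both, at 2.46 and 4.52 FPKM in the mock and 6.75 and 9.66 FPKM in the AGO2 precipitates. The K562 markers had medians of 1.31 and 0.79 over 9 rows. Of these rows, 5 and 4 were at least 2-fold higher with AGO2, against 34.5% and 26.6% of all rows. NFE2 (−1.99 and −1.12) and TFRC (−0.47 and −1.32) were below 0 on the log2 scale in both populations.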

How the data were processed

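The authors prepared libraries from RNA of 12 precipitates, ran TopHat and Cufflinks (build hg38 in the submitters' processing notes, versions and annotation not given in the sources used here) and deposited 4 tables with the average FPKM of each group. FPKM is scaled to the mapped fragments, and a large share taken by some RNAs lowers the values of the rest. Sources differ on the library: the labels name ribosomal RNA removal with random priming, and the methods of the study name the TruSeq RNA kit v2, which selects poly(A) RNA. Histone mRNAs mostly lack poly(A), and how much of them each library could capture is therefore not known. All 4 groups are described alike.

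Groups came from the sample titles. Ratios were log2((FPKM + 1)/(FPKM + 1)) of the deposited values, over rows of at least 1 FPKM in either group, counted at 2-fold and at 10-fold, the threshold of the study. Background percentages are over all rows. Not every K562 marker checked is reported here. With 1 average per group no test was run, and the design's form for pooled values was used. Genes were named by rank of mean level within a type, plus all H1 rows, the extremes of the AGO2 pair per type, and joined rows of at least 10 FPKM, and others after their values were seen. The members and lists were chosen with earlier results of these data known. Coordinates, transcripts and 100-base windows came from GENCODE 29 (GRCh38) by symbol, in which all histone rows with a single name were found. The software was python 3.11.15, pandas 2.3.3 and numpy 2.4.6. The 2-fold call rule was checked only on control_AGO values with known changes and no noise, so its recovery was fixed in advance. Depth was read from the 10th lowest product of FPKM and length in each group. Alternatives were pseudocounts of 0.1 and 0.01, other filters, 3 scalings, single-name rows, and summed names.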

Additional observations from a re-analysis of the deposited data

Results flagged for a closer look

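For 6 histone rows the ratio of AGO2 over mock precipitate had opposite signs in the 2 cell populations. Each rests on 1 average per group, and the differences were not tested. The log2 ratio of HIST1H3A was −3.21 in control and 0.90 in miR-143 cells, and its mock value was 48.5 FPKM in control_IgG and 3.67 FPKM in miR143_IgG. HIST1H2AB had −3.10 and 0.48, with mock values of 112 and 25.4 FPKM, and HIST1H1B had −2.38 and 0.11, with mock values of 20.97 and 8.05 FPKM. In these 3 genes the AGO2 value was also higher in miR-143 cells, and the mock value was lower. HIST2H2AB went the other way, with 1.08 in control and −0.52 in miR-143 cells, its mock values being 24.4 and 25.4 FPKM. The ratios of HIST2H2BF were 0.00 and −0.82 and those of HIST1H2BH −0.02 and 0.25, so that at least 1 of the ratios was near 0.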

How the results depend on the processing

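No paired analysis was possible because only the average of each group was used and replicate numbers are absent from the columns. Leaving out each replicate was not run for the same reason. Counts of histone rows at least 2-fold apart stayed within 1.5 times under all 44 recomputations. They ranged from 29 to 35 in control cells (34 in the text), 27 to 34 in miR-143 cells (33), 7 to 11 between the AGO2 groups (9) and 9 to 11 between the mock groups (11). These counts join higher and lower rows. With the same coding sum, histone rows lower with AGO2 in miR-143 cells went from 31 to 24 of 45, and higher ones from 2 to 4. The histone median there went from −1.66 to −1.16, and 25.5% of all rows were lower. By type, the count of H2A rows at least 2-fold lower with AGO2 in miR-143 cells went from 8 to 5 with the same upper quartile or coding sum. Leaving out rows with over 10% shared windows, or rows overlapping another gene, was chosen after seeing the data. The median of the mock pair (−0.13) changed sign to 0.14 with the same group median and to 0.044 with the same upper quartile. Higher rows were 77.8% of those called in the AGO2 pair and 66.7% with the same median. In the mock pair they were 45.5%, 60.0% with either scaling and 33.3% with single-name rows. Scaling to the same median moved the median over all rows of AGO2 over mock in control cells from −0.19 to 0.49, and the histone median from −2.50 to −1.85. The filter sets which rows a median covers, and without one the histone medians were −0.33 and −0.36 for AGO2 over mock, since rows at 0 entered. Keeping only rows that averaged 5 FPKM or more brought the histone median nearer to that of all rows. The histone median minus that of all rows went from −2.32 to −1.86 in control and from −1.44 to −1.14 in miR-143 cells. In control_IgG low values rest on the fewest fragments.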
